A study of Mus musculus with 6 samples.

Results

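The 10 genes described here encode parts of the fibroblast growth factor (FGF) pathway and its feedback: the ligands Fgf4 and Fgf5, the receptors Fgfr1 and Fgfr2, the feedback inhibitors Spry2, Spry4 and Dusp6, the ETS transcription factors Etv4 and Etv5, and the homeobox factor Otx2. They were taken by name, and all 10 of them were found among the 21000 protein-coding genes that have a transcription start site (TSS) of a curated RefSeq transcript in GRCm38. What is known of their chromatin here comes from 1 list of ATAC-seq peaks. ATAC-seq maps accessible DNA through the cuts of the Tn5 transposase. The libraries were made from untreated V6.5 cells, a mouse embryonic stem cell (mESC) line, in 2 replicates that the authors joined into a list of 41014 peaks. The labels describe growth on irradiated embryonic fibroblasts in medium with serum and LIF, while the methods of the study also name an inhibitor of MEK, the kinase above ERK, and one of GSK3 in the mESC medium. Which of the media the ATAC-seq cells had was not tested. The 4 libraries of ZBTB21-degron cells (0 and 6 h of IAA, the auxin that triggers degradation of the tagged protein) were not analysed here. Since the list has no value per replicate, every result below is a description without a test, and the depth of the libraries and the spread between them are unknown.

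In mESCs, FGF4 made by the cells themselves binds FGF receptors and signals through RAS, RAF, MEK and ERK, which readies the cells to leave the naive state. ERK activity switches on its own brakes: Sprouty proteins act early in the RAS branch, and the phosphatase DUSP6 removes the activating phosphates from ERK. Etv4 and Etv5 are ETS factors that rise with ERK activity and carry it into transcription, whereas Fgf5 and Otx2 are known as genes that come up when naive cells turn into primed, epiblast-like cells.

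A promoter was taken as the region within 1 kb of a TSS. Peaks were listed at the promoters of Spry2, Dusp6, Etv4 and Etv5, that is at 4 of the 10 genes, and at 28.5% of all protein-coding genes. By role, promoter peaks were listed at both ETS factors and at 2 of the 3 feedback inhibitors, and at none of the ligands, receptors or Otx2. All 10 genes had peaks in the surrounding locus, the gene span plus 50 kb on each side, as had 83.5% of all protein-coding genes. In total, 69 peaks lay in the 10 loci. The gap from a gene's TSS to the closest peak was 0 kb at Dusp6, Etv4 and Etv5, where the peak covered a TSS, and 0.212 kb at Spry2. It was 1.55 kb at Fgf5, 2.93 kb at Fgf4, 3.43 kb at Fgfr1, 8.02 kb at Fgfr2, 24.9 kb at Spry4 and 33.2 kb at Otx2, against a median of 9.23 kb over all protein-coding genes. A gene with no listed promoter peak is not thereby shown to have closed chromatin, because the list holds only peaks above a minimum score. From its lowest value alone, the score was read as reproducibility and not signal. The scores below therefore do not rank genes or peaks by how accessible they are.

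**Figure D1:**
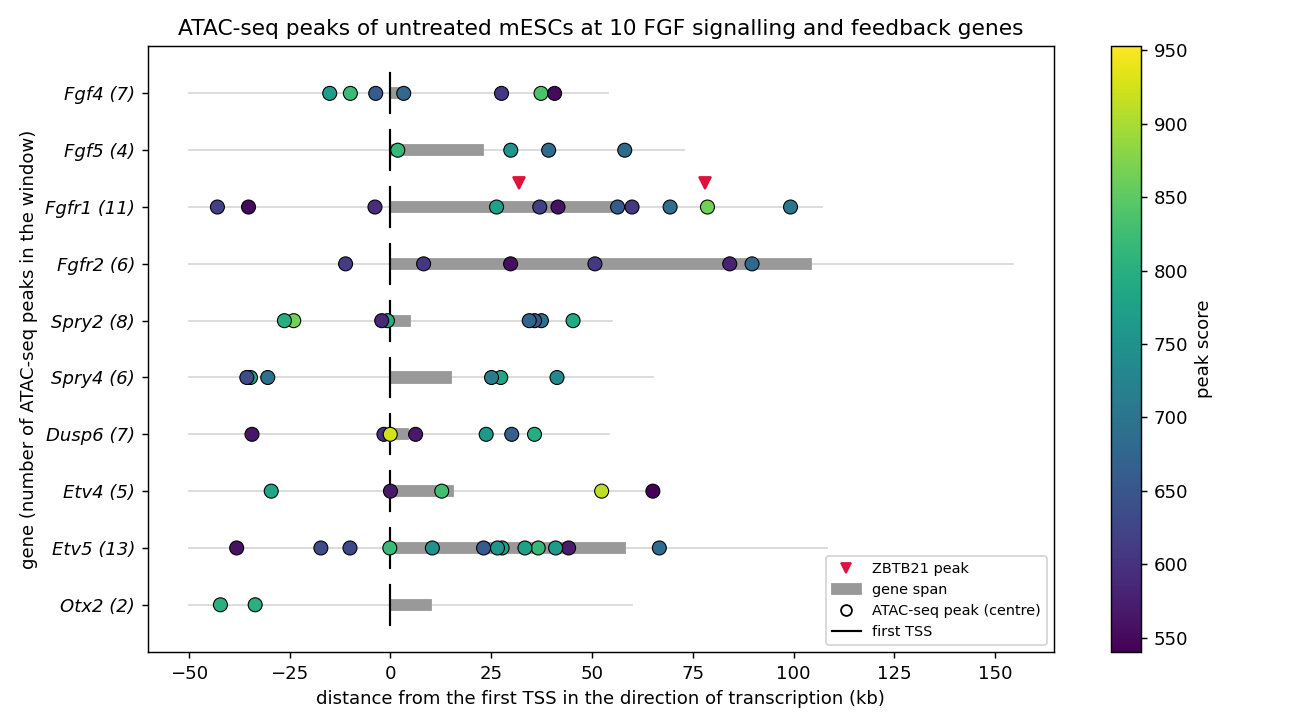
ATAC-seq peaks (circles at the peak centre, coloured by the deposited score) along the 10 loci, with the distance from the first TSS in kb in the direction of transcription. Grey bars are gene spans, thin lines the windows of 50 kb on each side, black ticks the first TSS and red triangles the edge of a ZBTB21 peak that is nearest to the TSS. Circles sit on the tick at Dusp6, Etv4 and Etv5, the Etv5 gene body holds a row of them, and red triangles appear at Fgfr1 alone.

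The sequences before the TSS of 4 of the genes show how unlike these promoters are in base composition, with and without a listed peak. Each run has the 250 bases that end just before the first TSS, from the RefSeq assembly GRCm38.p6, on the strand of the gene and 5′ to 3′. The capitals mark CpG dinucleotides. The runs of Dusp6 (chr10:99262981-99263230, plus strand) and Etv5 (chr16:22439571-22439820, minus strand) lie wholly in a listed peak, and those of Fgf4 (chr7:144861136-144861385, plus strand) and Fgfr2 (chr7:130266809-130267058, minus strand) have 0 bases in one.
Dusp6: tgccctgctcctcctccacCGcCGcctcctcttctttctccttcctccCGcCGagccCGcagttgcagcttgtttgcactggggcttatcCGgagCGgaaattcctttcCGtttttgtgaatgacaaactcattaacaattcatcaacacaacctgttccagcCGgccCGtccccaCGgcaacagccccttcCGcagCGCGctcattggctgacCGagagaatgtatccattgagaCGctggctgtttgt
Etv5: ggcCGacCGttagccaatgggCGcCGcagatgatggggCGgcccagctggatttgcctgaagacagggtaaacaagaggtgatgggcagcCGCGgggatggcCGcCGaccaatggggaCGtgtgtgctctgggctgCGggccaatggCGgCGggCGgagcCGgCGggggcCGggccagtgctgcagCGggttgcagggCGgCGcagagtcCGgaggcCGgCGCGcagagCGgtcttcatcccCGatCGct
Fgf4: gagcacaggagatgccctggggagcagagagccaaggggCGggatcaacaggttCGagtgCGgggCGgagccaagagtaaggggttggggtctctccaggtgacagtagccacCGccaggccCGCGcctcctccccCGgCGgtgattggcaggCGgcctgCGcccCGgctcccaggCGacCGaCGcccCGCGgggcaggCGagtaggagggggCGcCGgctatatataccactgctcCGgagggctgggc
Fgfr2: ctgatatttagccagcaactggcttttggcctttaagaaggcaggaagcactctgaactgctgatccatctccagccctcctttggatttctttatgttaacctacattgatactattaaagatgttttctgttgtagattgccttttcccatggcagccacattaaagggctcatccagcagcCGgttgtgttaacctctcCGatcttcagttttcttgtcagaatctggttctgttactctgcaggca

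The Fgf4 run holds 21 CpGs and has a GC content of 71.2%, the same GC content as the Etv5 run with its 27 CpGs, yet a peak was listed at the Etv5 promoter and none at that of Fgf4. The Dusp6 run holds 16 CpGs at a GC content of 56.4%. The Fgfr2 run is poor in CpGs, with 2 of them at 44.0% GC. From 250 bases before the first TSS to 50 after it, the ratio of observed to expected CpGs was 0.951 at Spry2, 0.938 at Etv5, 0.802 at Dusp6 and 0.550 at Etv4, the genes with a promoter peak. Among those without one it was 0.905 at Spry4, 0.828 at Fgf5, 0.774 at Fgf4, 0.627 at Fgfr1, 0.463 at Otx2 and 0.282 at Fgfr2, so the groups overlapped. Over all protein-coding genes the median ratio was 0.722 with a promoter peak (25th percentile 0.506, 75th percentile 0.872, 5991 genes) and 0.486 without (0.182 and 0.811, 15009 genes).

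Fgf4, the ligand that mESCs are known to make, spans chr7:144861386-144865245 on the plus strand (mm10, as for all coordinates here). Its locus held 7 peaks, a density of 67.4 peaks per Mb, and 89.1% of protein-coding genes had a lower one. None lay within 1 kb of the TSS. Downstream of the TSS, the peak at chr7:144864393-144865007 began 3.01 kb into the gene, was 615 bp wide and had a score of 678. All of its 615 bases lie in the last, untranslated part of the Fgf4 transcript. This is the place of the classical enhancer of Fgf4, at which SOX2 and OCT4 are known to bind side by side. A SOX word and an octamer word were found there, 4 bases apart and 1 base inside the edge of the peak. The site of 30 bases is shown, at chr7:144864388-144864417 on the plus strand. It was chosen because both words sit in the only peak listed within the Fgf4 gene, which covers 25 of the 30 bases. The capitals mark the SOX word CTTTGT and the octamer ATGCTAAT.
Fgf4 site: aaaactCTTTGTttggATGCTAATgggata

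Upstream, the Fgf4 locus held a peak of 1411 bp with a score of 659 at 2.93 kb, wider than 98.9% of the list, one of 714 bp with a score of 821 at 9.56 kb, and one of 526 bp with a score of 768 at 14.8 kb. The remaining 3 peaks lay 27.2, 37.1 and 40.5 kb downstream, with scores of 607, 836 and 550, and had the TSS of Fgf15, another FGF ligand gene, as the closest protein-coding TSS. The peak with the score of 836, the highest in the window, lay in an intron of Fgf15. Of the 7 peaks, 3 were closer to the TSS of Fgf4 than to any other protein-coding TSS. Thus the Fgf4 window is shared with its neighbours Fgf3 and Fgf15, and without the peaks closer to them it would hold 3.

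Fgf5 (chr5:98254184-98277033, plus strand) is the ligand that marks primed cells. It had 4 peaks in its locus, or 32.6 per Mb, and no other protein-coding TSS in the window. The closest peak, at chr5:98255732-98256315, lay in an intron 1.55 kb behind the TSS, just outside the promoter distance. It was 584 bp wide, and its score of 815 was above that of 89.3% of the list. The others followed 29.6, 38.8 and 57.9 kb downstream of the TSS, with scores of 755, 684 and 680. The last and second last were closer to the TSS of Cfap299 than to that of Fgf5.

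Fgfr1 (chr8:25518759-25575718, plus strand), a receptor for FGF4, had 11 peaks in its locus, more than 94.8% of protein-coding genes had in theirs. Its density was 70.1 per Mb, and 90.8% of protein-coding genes had a lower one. At its promoter none was listed. The closest peak lay 3.43 kb upstream, with a width of 794 bp and a score of 593. Of the 4 peaks behind the TSS and within the gene, the one 26.03 kb in had the highest score, 777, and the others had scores of 616, 558 and 657. The peak at 26.03 kb lies in an intron and had the highest score of the peaks inside the receptor genes.

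Downstream, the Fgfr1 window runs into Letm2, and the highest-scored peak of the window, 966 bp wide with a score of 865, covered the TSS region of Letm2, 78.2 kb from that of Fgfr1. In all, 5 of the 11 peaks had the Fgfr1 TSS as their closest protein-coding TSS, 5 that of Letm2 and 1 that of Nsd3.

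Fgfr2 (chr7:130162451-130266808, minus strand), the other receptor, is the longest of the 10 genes and had 6 peaks, 29.4 per Mb, of which 5 lay in introns or partly in a coding exon. Their scores lay between 556 and 679, all 6 below the median of the list, 696, and their widths between 324 and 527 bp, all below the median width of 547 bp. Fgfr2 was the only one of the 10 genes with no peak above the median score. The peak closest to the TSS lay 8.02 kb downstream, in an intron. The order of the 2 receptors by their highest score was thus Fgfr1 with 777 inside the gene and Fgfr2 with 679.

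The feedback inhibitors differed among themselves. Dusp6 (chr10:99263231-99267489, plus strand), the ERK phosphatase, had the highest-scored peak of all 69. It covered the TSS at chr10:99262767-99263626, with a width of 860 bp and a score of 924, above 99.4% of the list. A second promoter peak of 1228 bp with a score of 598 ended 0.982 kb upstream of the TSS, just inside the promoter distance, with 517 bp between the 2 peaks. Its locus held 7 peaks, 67.1 per Mb, and Dusp6 had the closest protein-coding TSS for each of them. The 4 downstream peaks, at 6.05, 23.5, 29.9 and 35.2 kb, had scores of 567, 763, 663 and 796.

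Spry2 (chr14:105891947-105896819, minus strand), a Sprouty inhibitor, had a peak of 1044 bp with a score of 795 that began 0.212 kb upstream of the TSS, at chr14:105897031-105898074. It had a GC content of 68.1% and was followed by a peak of 800 bp with a score of 586 at 1.75 kb. The locus held 8 peaks, 76.3 per Mb, more than at 93.0% of protein-coding genes by density. The highest score, 865, belonged to a distal peak of 826 bp at 23.6 kb upstream, and 4 peaks stood between 34.2 and 44.9 kb downstream. Spry2 had the closest protein-coding TSS for all 8.

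Spry4 (chr18:38586247-38601347, minus strand), also a Sprouty inhibitor, had no peak at the promoter and none in the gene. Its 6 peaks fell into 3 at 30.02, 34.4 and 35.3 kb upstream, with scores of 694, 782 and 635, and 3 at 24.9, 26.99 and 41.2 kb downstream, with scores of 712, 784 and 734. Between the 2 groups lay 54.9 kb without a listed peak, the widest gap between neighbouring peaks in any of the 10 loci. For 4 of the 6 peaks the score was above the median of the list, and at Spry2 for the promoter peak and 3 of the 7 others. Of these 2 Sprouty genes, Spry2 alone had a listed promoter peak.

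The ETS factors both had a peak over the TSS, with very different scores. At Etv4 (chr11:101769748-101785310, minus strand) the promoter peak at chr11:101784475-101786108 was 1634 bp wide, wider than 99.6% of the list and the widest of the 69 peaks, and had a score of 567, above only 7.64% of the list. With peaks above the median score only, Etv4 would have no promoter peak. Inside the gene, an intronic peak of 806 bp at 12.3 kb had a score of 828. Of the 5 peaks in the locus, 3 had the Etv4 TSS as the closest one, and the highest score, 912, belonged to a peak over the promoter of Dhx8, a helicase gene, 52.03 kb away.

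Etv5 (chr16:22381313-22439570, minus strand) had the most peaks, 13, and the highest density, 82.1 per Mb, above that of 94.9% of protein-coding genes. Its promoter peak at chr16:22439323-22440097 was 775 bp wide with a score of 820. Within the gene, 8 peaks lay between 8.67 and 42.8 kb behind the TSS, 7 of them mostly in introns and 1 mostly in a coding exon. Their scores ran from 571 to 817. All 13 peaks had an Etv5 TSS as the closest protein-coding TSS, and the window held no other one.

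Otx2 (chr14:48657677-48667644, minus strand) stood at the other end. It has 4 curated TSSs, and no peak was listed within 33 kb of any of them or in the gene. The 2 peaks of its locus lay 33.2 and 41.8 kb upstream, had widths of 738 and 662 bp and the same score of 802, above 86.0% of the list. Both lie in an intron of Otx2os1, a noncoding transcript. The density of 18.2 peaks per Mb was below the median of all protein-coding genes, 26.8 per Mb. The central 300 bases of the nearer peak (chr14:48701029-48701328, minus strand) are shown as the closest listed accessible DNA to Otx2, with 3 SOX words (CTTTGT or its complement) in capitals.
Otx2 upstream: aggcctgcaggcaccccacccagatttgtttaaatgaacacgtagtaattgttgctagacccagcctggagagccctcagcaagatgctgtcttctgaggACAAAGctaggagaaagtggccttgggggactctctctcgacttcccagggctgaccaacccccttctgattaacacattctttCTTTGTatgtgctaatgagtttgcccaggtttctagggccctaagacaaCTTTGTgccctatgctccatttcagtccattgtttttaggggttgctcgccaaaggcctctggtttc

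**Figure D2:**
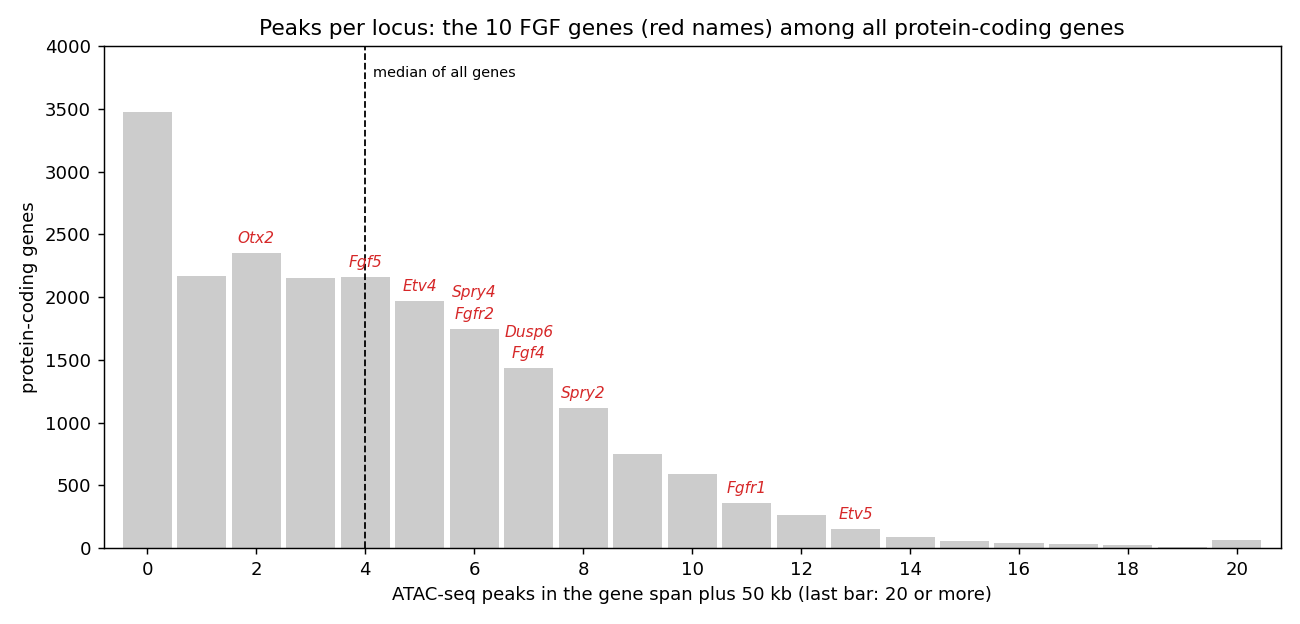
Number of ATAC-seq peaks in the gene span plus 50 kb on each side (x axis) against the number of protein-coding genes with that count (grey bars). Red names stand over the count of each of the 10 genes, from 2 at Otx2 to 13 at Etv5, and the dashed line marks the median of all genes, 4.

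Over the 10 genes, the median was 6.5 peaks per locus and 59.6 peaks per Mb, against 4 peaks (25th percentile 1, 75th percentile 6) and 26.8 per Mb (9.22 and 48.3) over all protein-coding genes. In ascending order the densities were 18.2 at Otx2, 29.4 at Fgfr2, 32.6 at Fgf5, 43.3 at Etv4, 52.1 at Spry4, 67.1 at Dusp6, 67.4 at Fgf4, 70.1 at Fgfr1, 76.3 at Spry2 and 82.1 at Etv5. Only Otx2 was below the median of all genes. When only the peaks closest to the gene's own TSS were kept, 55 of the 69 remained and the median density fell to 30.6 per Mb. That value is not comparable with the 26.8 per Mb, which counts every peak in a window. In 7 of the 10 windows the gene's own TSSs were the only protein-coding ones. The 55 other FGF and ERK pathway genes described below had a median of 5 peaks per locus and 44.3 per Mb, with every peak counted.

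By position, 5 of the 69 peaks lay at a promoter, 20 elsewhere in the gene, 20 upstream and 24 downstream. The promoter peaks had a median score of 795 (567 to 924) and a median width of 1044 bp (775 to 1634), against 742 and 757 bp for the 5852 peaks at any protein-coding promoter. The 64 others had a median score of 683.5 and a median width of 576 bp, against 690 and 522 bp for all peaks away from promoters. Thus the promoter peaks spread over nearly the whole range of scores, with Dusp6 near the top and Etv4 near the bottom, and the rest lay close to the list as a whole. Most bases lay outside curated transcripts in 41 peaks, in introns in 24, in untranslated or noncoding exons in 3 and in a coding exon in 1.

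**Figure D3:**
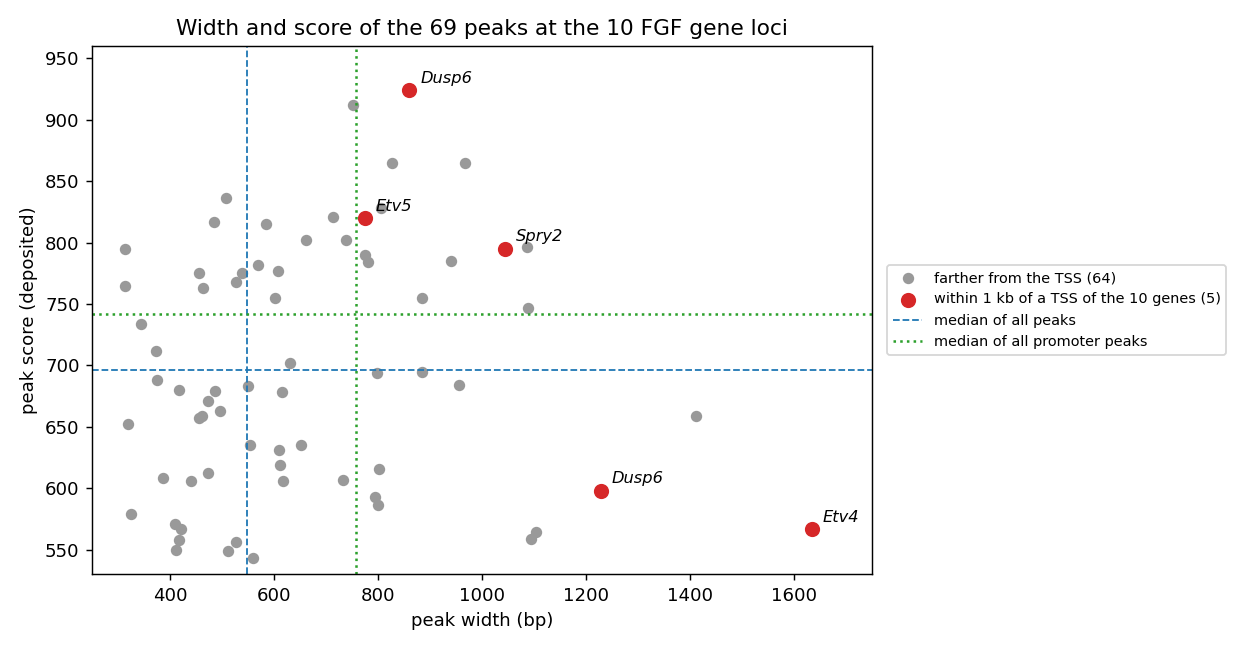
Width in bp (x axis) and deposited score (y axis) of the 69 peaks, with the 5 promoter peaks in red and named, and lines at the medians of all peaks (696 and 547 bp) and of all promoter peaks (742 and 757 bp). Dusp6 has both the highest score and, with its second peak of 598, one of the lowest among the promoter peaks, and the widest peak, that of Etv4, has a score of 567.

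The study asks how the zinc finger factor ZBTB21 acts on cohesin and chromatin loops, so its 1827 mESC ChIP-seq peaks were laid over the loci. These ZBTB21 peaks came from mESCs with a degron and GFP tag on ZBTB21, not from the untreated V6.5 cells of the ATAC-seq list. Of the 69 ATAC-seq peaks, 1 overlapped a ZBTB21 peak, as did 1.98% of the whole list. It is the Letm2 promoter peak in the Fgfr1 window, and at the promoters of the 10 genes there was no such overlap, which was found at 2.92% of all protein-coding genes. A ZBTB21 peak anywhere in the locus was found at 1 of the 10 genes, Fgfr1, and at 22.3% of protein-coding genes. Fgfr1 had 2 of them: that at Letm2 and one in a Fgfr1 intron, 31.997 kb from the TSS, that overlapped no listed ATAC-seq peak and was 3.85 kb away from the closest one. In windows of 100 kb on each side, Fgf4 and Etv5 also had 1 ZBTB21 peak each, and the one at Etv5 overlapped an ATAC-seq peak. The share of all protein-coding genes with a ZBTB21 peak in windows of 100 kb is not given here. The counts at 100 kb therefore cannot be set against the 22.3%.

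The study also lists 500 ZBTB21-responsive and 500 less-responsive loops, taken from those longer than 500 kb. A TSS of Fgfr1, Etv4 and Etv5 lay in the span of a responsive loop, 3 of the 10 genes, against 15.6% of protein-coding genes. No gene of the 10 lay in a less-responsive loop, where 5.74% of protein-coding genes had a TSS. Of the 55 other pathway genes described below, 6 had a TSS in a responsive loop and 3 in a less-responsive one. Fgfr1 lay in 1 loop of 925 kb with 40 ATAC-seq peaks and 3 ZBTB21 peaks, 16 protein-coding genes and its own TSS 244 kb from the closer anchor. Etv4 lay in 1 loop of 750 kb with 44 ATAC-seq peaks, 3 ZBTB21 peaks and 24 protein-coding genes. Etv5 lay in 2 loops of 775 and 525 kb that share an anchor, with 40 and 29 ATAC-seq peaks and 1 ZBTB21 peak. None of these TSSs lay in an anchor. The share of all protein-coding genes with a TSS in an anchor is not given here, so this count has no comparison. In each of these 4 loops 1 ATAC-seq peak overlapped a ZBTB21 peak. The study put a loop in the responsive class only if it held ZBTB21 peaks and cohesin peaks that weakened on ZBTB21 degradation, and ranked loops by signals summed at their ATAC-seq peaks, so neither the ZBTB21 peaks nor the number of ATAC-seq peaks in a loop is independent of its class.

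Short sequence words of factors that act in mESCs were searched on both strands of the central 300 bases of each peak. They were an ETS word (CCGGAAGT), octamers (ATTTGCAT or ATGCTAAT), a SOX word (CTTTGT), AP-1 (TGACTCA or TGAGTCA, each the complement of the other), ESRRB (TCAAGGTCA), STAT (TTCCNGGAA), TCF (CTTTGATC), KLF (GGGTGTGG) and the CTCF core by its name. The TCF word begins with 5 letters of the SOX word but does not contain it, and the STAT word is its own complement where N allows it. The SOX word was in 25 of the 69 peaks (36.2%) and in 26.1% of the 41000 peaks on the chromosomes. Among the peaks farther than 1 kb from a protein-coding TSS, as most of the 69 are, it was in 28.1%. The octamers were in 4 (5.80%, against 4.69%), AP-1 in 5 (7.25%, against 8.43%), KLF in 3 (4.35%, against 7.62%), the CTCF core in 3 (4.35%, against 8.65%), STAT in 2 (2.90%, against 1.47%), ETS in 1 (1.45%, against 1.76%) and TCF in 0 (against 1.22%). Among all peaks away from promoters the shares were 5.07% for the octamers, 9.18% for AP-1, 8.22% for KLF and 9.64% for the CTCF core. They were 1.48% for STAT, 0.822% for ETS and 1.32% for TCF. The single ETS word lay at Dhx8. The SOX and octamer words of the Fgf4 site shown above lie outside the central window of their peak and are not in these counts. With so few peaks, each count but that of SOX rests on 5 or fewer.

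The ESRRB word was in 4 of the 69 central windows (5.80%), in 1.27% of all and in 1.45% of those of distal peaks. It was in the Fgf4 peaks 9.56 kb upstream and 3.01 kb downstream, in an upstream Spry4 peak and in the Etv5 intron peak 24.9 kb behind the TSS. Over whole peaks it was also in the Fgf4 peak 14.8 kb upstream and in the Spry2 peak 37.02 kb downstream. ESRRB is an orphan nuclear receptor of naive mESCs. Both stretches of 61 bases are shown, from Fgf4 (chr7:144851346-144851406, plus strand) and Etv5 (chr16:22413036-22413096, minus strand), because they place the same word in distal peaks of a ligand and of an ETS factor. The word is in capitals and reads as its complement on the strand of either gene.
Fgf4 upstream: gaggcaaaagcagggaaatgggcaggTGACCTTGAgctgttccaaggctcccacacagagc
Etv5 intron: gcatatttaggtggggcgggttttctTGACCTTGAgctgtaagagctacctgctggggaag

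Other genes of the pathway were described in the same way. Of 56 further FGF and ERK pathway genes, 55 had a curated TSS (Spry3 had none), and 19 of these (34.5%) had a promoter peak. Among the other ligands 2 of 16 had one: Fgf23, with a score of 825, and Fgf17, with 2 peaks of which the higher had 623. At the co-receptors and receptors it was 1 of 5, Fgfr4, with a score of 584. At the adaptors and signal relays it was 7 of 18, led by Shc1 with a score of 826 and Araf with 811. At the feedback inhibitors it was 5 of 10, led by Il17rd (SEF, an inhibitor of FGF signalling) with a score of 839 and Spred2 with 806. At the ERK targets it was 4 of 6, led by Ier2 with a score of 780 and Etv1, the third ETS factor of the family, with 768. Among the 55 genes, a promoter peak that overlapped a ZBTB21 peak was found only at Ptpn11 (score 808), Map2k1 (541) and Ier2 (780). Over all protein-coding genes such an overlap was found at 2.92%. A ZBTB21 peak anywhere in the locus was found at 16 of the 55 genes and at 22.3% of all protein-coding genes. In both lists the share of genes with a promoter peak was lower for ligands and receptors than for feedback inhibitors. It was 0 of 4 and 3 of 21 for ligands and receptors, and 2 of 3 and 5 of 10 for feedback inhibitors. Over all protein-coding genes the share was 28.5%. Both lists were chosen with earlier results of these data known, so the other pathway genes are no independent check of the 10 genes. This is a description without a test.

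**Figure D4:**
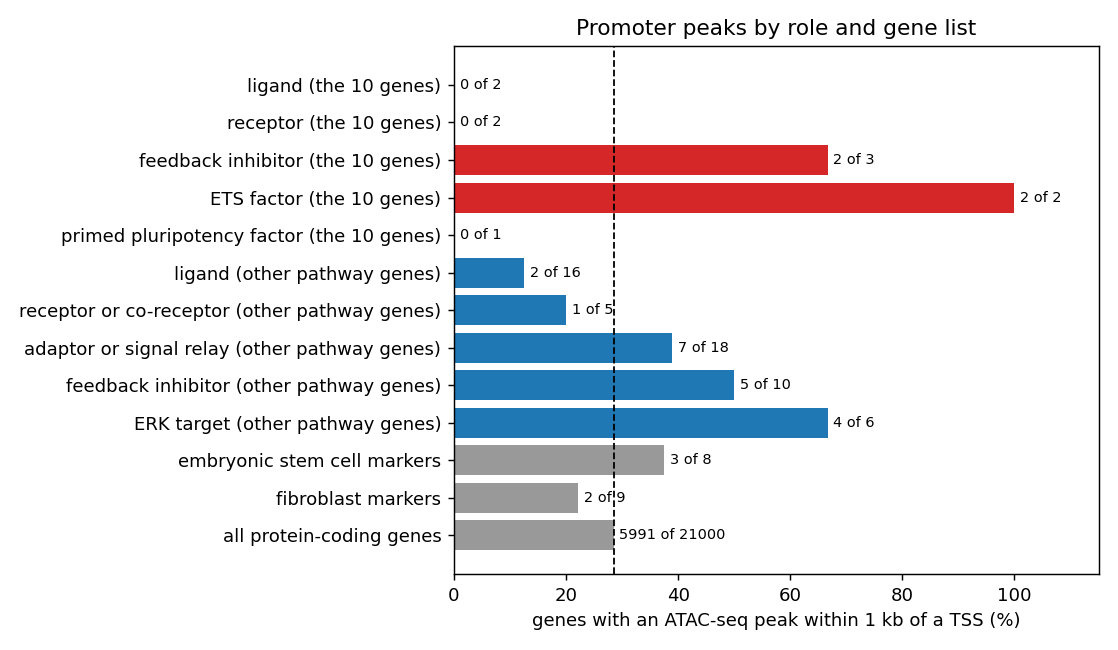
Share of genes that have a promoter peak (x axis, %), by role for the 10 genes (red) and for the other pathway genes (blue), and for marker lists and all protein-coding genes (grey), with the counts beside the bars. The dashed line marks the share of all protein-coding genes, 28.5%, with the ligands and receptors of both lists to its left.

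The label was checked against marker genes. The 8 mESC markers had a median of 8 peaks per locus (71.9 per Mb), and 3 of them (Pou5f1, Nanog and Zfp42) had a promoter peak. The 9 fibroblast markers, chosen because the cells grow on fibroblast feeders, had a median of 1 peak per locus (7.24 per Mb), 4 had none in the locus, and 2 (Thy1 and Pdgfrb) had a promoter peak. Over all protein-coding genes the share with a promoter peak was 28.5%. The peaks per locus overlapped between the lists, from 1 at Klf4 to 18 at Esrrb and from 0 to 7 at Col1a1. Sox2, Esrrb, Klf4, Tfcp2l1 and Utf1, genes known to be active in mESCs, had no listed promoter peak, so a missing promoter peak was also found at genes these cells use.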

How the data were processed

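ATAC-seq was performed in 2 replicates of untreated V6.5 mESCs. The authors deposited 1 peak list for both, with mm10 coordinates and a score per peak (540 to 953, median 696). Processing notes name cutadapt 2.6, Bowtie2 2.3.5.1 and MACS2 2.1.1, with no roles, and how the ATAC-seq peaks were called, including any shift of cut sites, is not given in the sources used here. For ChIP-seq the methods give MACS2 peaks filtered by IDR over replicates. The lowest score, 540, is the value that the usual IDR scaling gives at its common threshold. From this floor alone the score was read as reproducibility and not signal, and peaks under it are left out.

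Promoters were within 1 kb of the TSSs of curated RefSeq transcripts (GRCm38.p6, the assembly of mm10), and loci were the transcript spans plus 50 kb. Overlap meant at least 1 bp. The ZBTB21 peaks and loops were those of the study, from ZBTB21-degron mESCs. All 10 genes are named. Other pathway genes are named where a promoter peak overlapped a ZBTB21 peak, or for the highest-scored promoter peaks of their role. The genes and lists were chosen with earlier results of these data known. Counting was checked on simulated intervals (0 of 1000 counts differed from a direct count). Python 3.11.15, numpy 2.4.6 and pandas 2.3.3 were used.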

Additional observations from a re-analysis of the deposited data

How the results depend on the processing

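Over 10 results, 41 values were computed under alternatives, and 32 of these stayed within 1.5 times a count or within 1 SD over the peaks or genes of a median. The number of peaks in the 10 loci, 69, was 31 with only peaks above the median score, 45 with 25 kb on each side and 107 with 100 kb. The median density of 59.6 peaks per Mb was 27.4 with only peaks above the median score and 30.6 with only peaks closest to the gene's own TSS. These shifts follow from fewer or more peaks being counted. The number of ATAC-seq peaks overlapping a ZBTB21 peak, 1, was 2 with 100 kb on each side and 0 with only peaks closest to the gene's own TSS, and the number of genes with a ZBTB21 peak in the locus, 1, was 3 with 100 kb. The number of genes in a responsive loop, 3, was 0 when the TSS had to lie in an anchor. The number of genes with a promoter peak, 4, was 4 within 500 bp of the TSS and 5 within 2.5 kb, where Fgf5 was added. It was 3 with only peaks above the median score, where Etv4 was lost. For all of these alternatives, values over all protein-coding genes are not given here. The counts and densities under them therefore cannot be set against the shares and medians of all protein-coding genes given above. The use of the annotation's gene record for the span was chosen after seeing the data and changed none of the 3 values computed with it. No paired analysis was possible because the list joins both replicates, and for the same reason no replicate could be left out. The list has no read counts, so depth and the error of each score are unknown.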
